A study of Mus musculus with 4 samples.

Results

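Glycolysis, the pentose phosphate pathway and the tricarboxylic acid (TCA) cycle were followed as 51 named mouse genes in the lines TS2 and TS1. Both lines are labelled as derived from T cells. The genes comprised 27 of glycolysis, with glucose uptake, the regulators of phosphofructokinase and lactate export, 5 of the entry of pyruvate into mitochondria, 7 of the pentose phosphate pathway and 12 of the TCA cycle. A gene was measured if a probe set named it and no other gene, and its brightest probe set over all 4 arrays stood for it. This left 46 of the 51 genes, out of 19938 genes measured in all. Gpi1, Pfkfb1, Eno1 and G6pdx had no such probe set, and Gapdh appeared only in 25 probe sets that name several genes, so these 5 were not measured.

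The TS2 and TS1 lines are described in the labels as derived from CD4-positive T lymphocytes, are untreated and were kept in the same Iscove-Dulbecco's medium with murine interleukin-9. No genotype, strain or clone is given for either line. RNA of 2 biological duplicates, A and B, of TS2 and likewise of TS1 was hybridised to Affymetrix mouse gene arrays, 1 array each. Nothing in the labels says that the duplicates were separate cultures, so the p-values measure the spread between these arrays, which may be technical. Values are log2 of the deposited normalized intensity, and the median log2 value of an array over all probe sets lay between 6.47 and 6.53. Differences are TS2 minus TS1 with their standard error (SE, n = 2 arrays per line). A gene was called when its limma p, Benjamini-Hochberg adjusted over all 19938 genes, was under 0.05. The number of arrays limits the precision, and signal over background was not examined, so the size of a difference is uncertain where a line is dim. A lower level in a whole culture may reflect fewer cells that express a gene or less RNA per cell, and these cannot be told apart.

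The labelled cell type was checked against its markers. Of all genes, 5.05% were called higher in TS2 and 8.45% higher in TS1. Of 13 measured T cell markers, 4 were higher in TS2 (Cd3e, Ptprc, Cd247 and Zap70) and 1 was higher in TS1 (Lat). Their summed intensity was 13389 and 14823 on the TS2 arrays, against 2759 and 1535 on the TS1 arrays. Single genes weigh on these sums: Cd3e gave 6847 and 5930 on TS2 A and B, and Cd3g gave 1465 and 67 on TS1 A and B. Cd4 itself was dim, at a mean log2 value of 5.21 in TS2 and 5.37 in TS1. Cd2, Cd3d, Cd5, Cd6 and Thy1 also lay below the array medians on every array. Their means ran from 4.86 for Cd3d to 6.24 for Thy1 in TS2, and from 4.77 to 6.10 for the same genes in TS1. In TS1, Cd3e, Cd247 and Ptprc were below the array medians too, Ptprc at an intensity of 32.03 and 31.87. The list thus gives the label only partial support, and less in TS1 than in TS2. Cd3g was 10.39 and 11.98 on TS2 A and B, against 10.52 and 6.07 on TS1 A and B, so the TS1 duplicates differ in this marker. The TS2 duplicates differ in others. Cd28 was 7.14 and 4.95 on TS2 A and B, against 4.66 and 4.38 on TS1 A and B, and was not called. Of 5 mast cell markers, 0 were called higher in TS2 and 1 was called higher in TS1 (Kit). Their summed intensity was 8848 and 10074 in TS2 and 7387 and 8443 in TS1. Most of it came from Fcer1a, at a mean of 13.0 in TS2 and 12.8 in TS1. Mcpt4 was 6.60 and 10.10 on TS2 A and B, against 5.45 and 5.33 on TS1 A and B, and was not called. Of 2 measured erythroid markers, Epor was higher in TS1, by a difference of -1.66, and Alas2 was not called (-0.39). Of 5 fibroblast markers, Pdgfra was higher in TS1, by -1.78. The other 4 were not called, with differences from 0.058 for Dcn to 0.14 for Col3a1. No B cell or myeloid marker was called. The part of these markers in the results below was not tested.

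Glycolysis splits glucose into pyruvate in the cytosol, and dividing T cells and lymphoid lines use it heavily, with much of the pyruvate reduced to lactate and exported. The pentose phosphate pathway branches from glycolysis and yields NADPH and ribose for nucleotides. Pyruvate that enters mitochondria is turned into acetyl-CoA by the pyruvate dehydrogenase complex, which kinases switch off and phosphatases switch on, and the TCA cycle oxidises the acetyl group. Many steps are catalysed by isozymes, related proteins from different genes with different control or tissue range.

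TS2 had less transcript of several regulators and isozymes of glycolysis, of pyruvate dehydrogenase subunits and of Pgd and Rpia of the pentose phosphate pathway. Of 6 abundant enzymes of the lower glycolytic pathway 0 were called, with differences from -0.19 to 0.14. Only Eno3, the enolase isozyme typical of muscle, was called higher in TS2, and 12 genes were called higher in TS1: Pfkm, Pfkfb3, Pfkfb4, Aldoc, Eno2, Pdk3, Pdha1, Pdhb, Pgd, Rpia, Suclg1 and Sucla2. These 13 of 46 genes are 28.3%, against 13.5% of all genes called. Higher in TS2 were 5.05% of all genes and higher in TS1 8.45%. Among the 1943 genes at least as bright as the middle of the 46, 5.82% were higher in TS2 and 9.16% were higher in TS1. At least 2-fold apart were 4 of the 13 called genes (Eno3, Eno2, Pfkfb3 and Pdha1), and 5.19% of all genes were called with such a fold. The median difference of the 46 genes was -0.20, against 0.013 over all genes and -0.081 over those 1943 bright genes. No TS2 array overlapped the TS1 arrays for 31 of the 46 genes (67.4%), against 58.4% of all genes.

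Single arrays weigh heavily on these counts. The count higher in TS1 was 3 without TS2 A, 5 without TS2 B, 10 without TS1 A and 11 without TS1 B. These counts include calls outside the 12 genes: Idh1 and Pdk2 without TS2 B, and Pdk1 and Slc16a3 without TS1 A and without TS1 B. Eno3 kept its call whichever array was left out, as did Pfkfb3, Aldoc and Pdha1 among the 12 genes higher in TS1. Without moderated variances the same linear model in limma called 0 of the 46 genes and 0 of all genes, with 15 and 4156 at an unadjusted p under 0.05. The remaining 9 calls were lost in at least one of these 4 fits, all of them without TS2 A and without TS2 B. In such a fit the line left with 1 array is assumed to vary like the other, whose duplicates alone give that gene's own spread beside limma's prior, so a call gained by leaving out an array of a widely spread pair is no support for a difference.

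**Figure D1:**
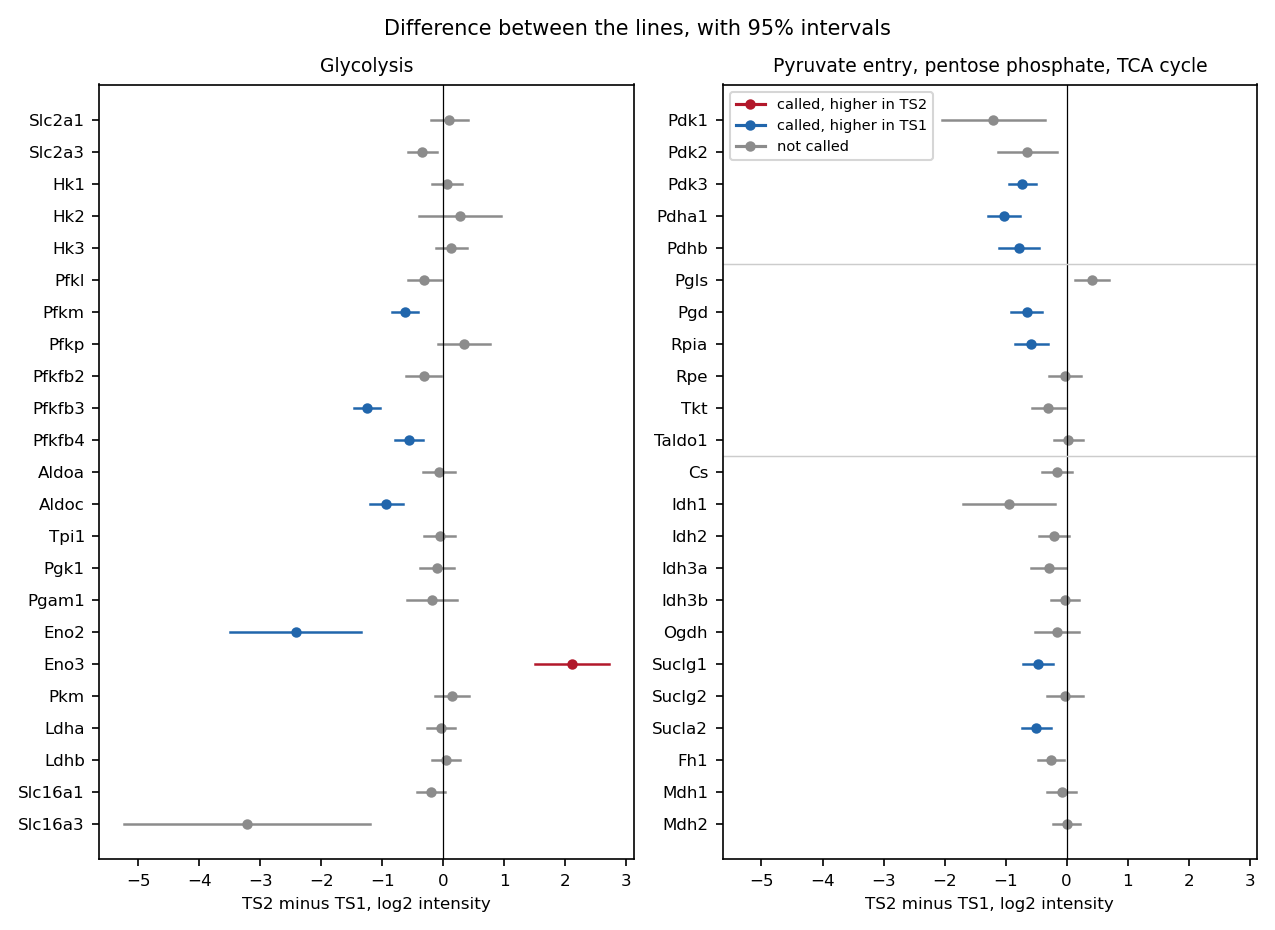
Difference between the lines for each of the 46 measured genes (TS2 minus TS1, log2 intensity), with 95% intervals from limma. Red marks the 1 gene called higher in TS2, blue the 12 called higher in TS1 and grey the 33 not called. Of the 46 differences 36 are negative, against 9436 of all 19938 genes, and Eno3 stands alone on the right among the called genes.

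The promoters of 5 glycolytic genes whose values are described next are shown here, as the 250 bases before the annotated start in RefSeq (GRCm38.p6), 5′ to 3′ on the gene's strand. Capitals mark the letters ACGTG read on either strand, the core of the hypoxia-response element to which HIF factors bind. The palindrome CACGTG, an E-box to which MYC binds, contains these letters. Pfkfb3 and Slc16a3 had large differences, Ldha differed little, and Eno2 and Eno3 are isozymes that differed in opposite directions. Pfkfb3 has 2 listed starts and both are given. The Ldha window is that of the first of its 2 listed starts.
Pfkfb3, chr2:11553930-11554179, minus strand: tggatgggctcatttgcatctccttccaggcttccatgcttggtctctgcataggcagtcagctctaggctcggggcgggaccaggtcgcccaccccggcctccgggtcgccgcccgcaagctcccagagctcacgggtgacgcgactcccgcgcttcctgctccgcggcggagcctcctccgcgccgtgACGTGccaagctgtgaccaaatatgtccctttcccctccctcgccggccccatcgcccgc
Pfkfb3, chr2:11502091-11502340, minus strand: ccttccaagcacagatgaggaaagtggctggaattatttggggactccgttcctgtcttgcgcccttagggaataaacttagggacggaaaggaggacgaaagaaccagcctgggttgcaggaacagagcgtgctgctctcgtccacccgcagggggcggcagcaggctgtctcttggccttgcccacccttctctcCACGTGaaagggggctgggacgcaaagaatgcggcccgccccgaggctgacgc
Slc16a3, chr11:120948817-120949066, plus strand: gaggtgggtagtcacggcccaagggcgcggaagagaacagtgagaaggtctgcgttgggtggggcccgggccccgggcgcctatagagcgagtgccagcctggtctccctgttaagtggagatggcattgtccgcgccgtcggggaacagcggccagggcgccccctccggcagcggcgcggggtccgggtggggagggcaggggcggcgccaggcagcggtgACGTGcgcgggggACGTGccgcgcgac
Ldha, chr7:46845554-46845803, plus strand: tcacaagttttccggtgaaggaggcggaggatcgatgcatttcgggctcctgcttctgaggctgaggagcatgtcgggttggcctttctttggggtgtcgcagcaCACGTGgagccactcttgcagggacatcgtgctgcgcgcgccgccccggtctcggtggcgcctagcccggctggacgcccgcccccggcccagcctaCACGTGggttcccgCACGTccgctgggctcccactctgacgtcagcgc
Eno2, chr6:124769674-124769923, minus strand: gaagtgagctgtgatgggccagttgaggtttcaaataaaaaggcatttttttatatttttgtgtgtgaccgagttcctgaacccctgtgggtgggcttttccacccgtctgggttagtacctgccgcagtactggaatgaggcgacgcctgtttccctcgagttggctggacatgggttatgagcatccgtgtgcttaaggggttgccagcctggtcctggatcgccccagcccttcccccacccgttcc
Eno3, chr11:70656926-70657175, plus strand: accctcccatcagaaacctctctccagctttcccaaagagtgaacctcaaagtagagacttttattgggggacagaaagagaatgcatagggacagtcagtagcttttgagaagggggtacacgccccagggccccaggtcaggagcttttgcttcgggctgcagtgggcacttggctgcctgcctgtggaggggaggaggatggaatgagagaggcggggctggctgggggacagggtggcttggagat

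ACGTG was found in the Pfkfb3, Slc16a3 and Ldha windows and in neither enolase window. In Slc16a3 the matches begin 27 and 14 bases before the start. Over all 27025 genes with a promoter entry, 18.5% had ACGTG in at least one such window, and 6.9% had CACGTG. Of the 49 listed genes with an entry, 18 had ACGTG (36.7%) and 7 had CACGTG (14.3%). Slc2a3 and Idh3a had no entry. ACGTG was present for 4 of the 12 genes called higher in TS1 and for 14 of the 31 genes with an entry that were not called. A match is a description of these letters and shows no binding.

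Glucose enters T cells mainly through the transporters encoded by Slc2a1 and Slc2a3. Slc2a1 had log2 values of 11.14 and 11.18 on the TS2 arrays, against 10.93 and 11.20 on the TS1 arrays, and the lines overlap. Slc2a3 had 10.06 and 10.07 in TS2, against 10.47 and 10.35 in TS1, a difference of -0.35 (SE 0.092) that was not called (adjusted p = 0.0747). The values of Slc2a3 do not overlap between the lines, all TS2 values being the lower ones. It was called when the dimmer 50% of probe sets were left out (adjusted p = 0.0483).

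Hexokinases trap glucose in the cell as its phosphate. Hk2, the inducible isozyme, had 10.56 and 11.05 in TS2, against 10.83 and 10.22 in TS1, so the duplicates lay 0.49 apart in TS2 and 0.61 apart in TS1, more than the difference of 0.28 between the lines. Hk1, the isozyme of most tissues, had 12.98 and 13.10 in TS2, against 12.93 and 13.02 in TS1 on its brighter probe set, which the annotation ties to a single Hk1 record. Its other probe set read 10.78 and 10.74 in TS2, against 10.78 and 10.85 in TS1, so the level of Hk1 is uncertain, while the differences were 0.063 and -0.053. Hk3 was dim, at 5.77 and 5.70 in TS2 and 5.68 and 5.53 in TS1. No hexokinase was called. The 95% intervals of the differences run from -0.19 to 0.31 for Hk1, from -0.39 to 0.95 for Hk2 and from -0.13 to 0.38 for Hk3.

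Phosphofructokinase commits sugar to glycolysis and is built from the subunits encoded by Pfkm, Pfkl and Pfkp, named for muscle, liver and platelets. Pfkm had 9.08 and 9.10 in TS2, against 9.71 and 9.73 in TS1, and was 1.55-fold higher in TS1 (difference -0.63, SE 0.085, adjusted p = 0.0135). The duplicates of each line almost coincide for Pfkm. Pfkl had 9.36 and 9.32 in TS2, against 9.55 and 9.75 in TS1 (difference -0.31, adjusted p = 0.129). Pfkp had 10.99 and 10.95 in TS2, against 10.41 and 10.86 in TS1 (difference 0.33, adjusted p = 0.269). Neither Pfkl nor Pfkp was called, and Pfkp is the only one of the 3 with higher values in TS2. Dropping either TS2 array ended the call of Pfkm, at an adjusted p of 0.0906 without A and 0.0833 without B.

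The Pfkfb genes encode enzymes that make and break fructose 2,6-bisphosphate, the strongest activator of phosphofructokinase. Pfkfb3, the isozyme with the highest kinase activity, had 7.81 and 7.80 in TS2, against 9.06 and 9.04 in TS1. It was 2.38-fold higher in TS1 (difference -1.25, SE 0.085, adjusted p = 0.00194), with duplicates 0.0097 apart in TS2 and 0.016 apart in TS1. Pfkfb4, an isozyme inducible by hypoxia, had 6.66 and 6.64 in TS2, against 7.27 and 7.16 in TS1 (difference -0.56, SE 0.091, adjusted p = 0.0215). Pfkfb2, the heart isozyme, had 7.68 and 7.47 in TS2, against 7.85 and 7.94 in TS1, and was not called (difference -0.32, adjusted p = 0.136). All 3 measured Pfkfb genes were lower on every TS2 array than on any TS1 array. Of all genes, 58.4% did not overlap between the lines, in either direction. Only Pfkfb3 of the 3 kept its call whichever array was left out. Pfkfb4 lost its call without TS2 A, TS2 B or TS1 A, with adjusted p = 0.118, 0.120 and 0.059.

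The enzymes that carry the bulk of the lower pathway were bright in both lines. Aldoa (aldolase), Tpi1 (triosephosphate isomerase), Pgk1 (phosphoglycerate kinase), Pgam1 (phosphoglycerate mutase), Pkm (pyruvate kinase) and Ldha (lactate dehydrogenase) had log2 values from 11.0 to 13.4 on all 4 arrays. Of these 6 genes 0 were called, and their differences ran from -0.19 for Pgam1 to 0.14 for Pkm (adjusted p from 0.481 to 0.844). Ldha had 13.32 and 13.40 in TS2, against 13.38 and 13.41 in TS1, with a 95% interval of the difference from -0.26 to 0.19. The interval of Pgam1 ran from -0.60 to 0.23, and its TS1 duplicates lay 0.43 apart. Pgk1 and Pgam1 have 3 probe sets each, some with the same or nearly the same values, so signal from near-identical copies elsewhere in the genome cannot be told from that of the gene, and their levels are uncertain. The second probe set of Pkm gave a difference of 0.28, against 0.14 for the brighter one.

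A second aldolase gene and the enolase genes Eno2 and Eno3 were called. Aldoc, the aldolase typical of brain, had 6.002 and 6.197 in TS2, against 7.04 and 7.03 in TS1, a difference of -0.94 (SE 0.10, adjusted p = 0.00819). Eno2, the neuronal enolase, had 5.84 and 5.43 in TS2, against 7.43 and 8.66 in TS1, and was 5.34-fold higher in TS1 (difference -2.42, SE 0.42, adjusted p = 0.0256). Eno3 had 10.18 and 10.31 in TS2, against 7.79 and 8.47 in TS1, and was 4.33-fold higher in TS2 (difference 2.11, SE 0.24, adjusted p = 0.00805). The lines are thus well apart in both enolase genes but in opposite directions, and TS1 B lay above TS1 A for both. Eno2 and Aldoc lay below the array medians in TS2, so their fold is uncertain there. Eno2 was no longer called when either TS2 array was dropped (adjusted p = 0.0830 without A, 0.112 without B). Eno1, the enolase of most tissues, was not measured. Ldhb, the heart lactate dehydrogenase, was dim at 5.33 and 5.31 in TS2 and 5.32 and 5.23 in TS1.

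Lactate leaves the cell through monocarboxylate transporters. Slc16a3, the high-capacity exporter MCT4, had 6.70 and 7.16 in TS2, against 8.93 and 11.37 in TS1. Its difference of -3.22 (SE 0.79) was the largest in size of the 46 genes, but it was not called (adjusted p = 0.0612), and the TS1 duplicates lay 2.44 apart. With TS1 B as the only TS1 array the difference was -4.44, and with TS1 A alone it was -1.998. Both fits passed the threshold (adjusted p = 0.0034 and 0.0212), but they leave the gap between the TS1 duplicates out of the spread. Slc16a1, the transporter MCT1, had 11.72 and 11.72 in TS2, against 11.89 and 11.96 in TS1 (difference -0.20, adjusted p = 0.206).

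**Figure D2:**
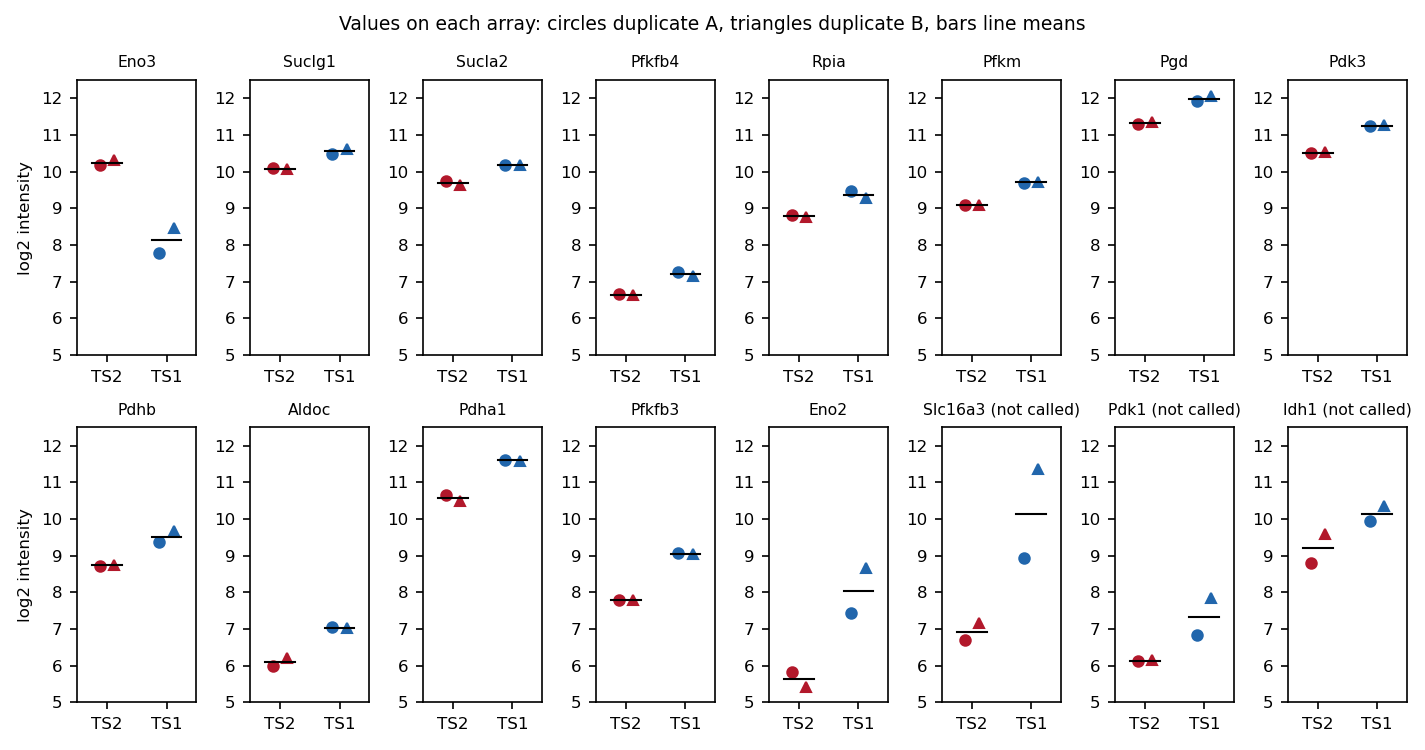
Log2 intensity on each array for the 13 called genes and for Slc16a3, Pdk1 and Idh1, which were not called; circles are duplicate A, triangles duplicate B and bars the line means. Eno3 is the only panel with TS2 above TS1, and the TS1 duplicates are far apart for Slc16a3, Eno2 and Pdk1.

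Every one of the 5 genes of pyruvate entry was lower on both TS2 arrays than on any TS1 array, with a median difference of -0.78, and 3 were called higher in TS1. Over all genes, 58.4% did not overlap and 8.45% were called higher in TS1. Pdha1 and Pdhb encode the subunits of the enzyme that decarboxylates pyruvate. Pdha1 had 10.66 and 10.49 in TS2, against 11.62 and 11.57 in TS1, and was 2.03-fold higher in TS1 (difference -1.02, SE 0.10, adjusted p = 0.00587). Pdhb had 8.73 and 8.74 in TS2, against 9.36 and 9.67 in TS1 (difference -0.78, SE 0.13, adjusted p = 0.0226). The Pdk genes encode the kinases that switch the complex off. Pdk3 had 10.51 and 10.54 in TS2, against 11.23 and 11.26 in TS1 (difference -0.73, SE 0.086, adjusted p = 0.00939). So the enzyme's subunits and a kinase that inactivates it were both lower in TS2. Pdhb and Pdk3 lost their calls without TS2 A and without TS2 B, with adjusted p from 0.0601 to 0.115.

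Pdk1 and Pdk2 were not called, and their duplicates spread more. Pdk1, a kinase gene induced by hypoxia, had 6.13 and 6.15 in TS2, against 6.84 and 7.84 in TS1 (difference -1.20, SE 0.33, adjusted p = 0.0797). With a single TS1 array Pdk1 passed the threshold (adjusted p = 0.00468 without A and 0.0378 without B), but its own spread then came from the TS2 duplicates alone, which lay 0.013 apart, against 1.005 in TS1. Pdk2 had 5.82 and 6.36 in TS2, against 6.69 and 6.77 in TS1 (difference -0.64, adjusted p = 0.0966), and was called without TS2 B (adjusted p = 0.0408), a fit that leaves out the TS2 gap of 0.53. Pdk1 was thus wide apart between the TS1 duplicates and Pdk2 between the TS2 duplicates. Both genes lay below the array medians in TS2, so the size of their differences is uncertain.

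Among 14 measured further genes of pyruvate entry, 1 was higher in TS2 and 2 were higher in TS1, against 5.05% and 8.45% of all genes. Mpc1, a subunit of the carrier that brings pyruvate into mitochondria, had 9.99 and 9.92 in TS2, against 10.86 and 11.67 in TS1 (difference -1.31, adjusted p = 0.0402). Pdhx, which anchors a subunit in the pyruvate dehydrogenase complex, differed by -0.84 (adjusted p = 0.0163). Dlat and Dld, the other catalytic subunits of that complex, differed by -0.27 and -0.31 and were not called (adjusted p = 0.145 and 0.107). All 5 measured subunit genes of the complex thus had lower means in TS2, as did 9436 of all 19938 genes. Of the 5, 3 were called higher in TS1, against 8.45% of all genes. Pdp2, a phosphatase that switches the complex on, was higher in TS2 by 0.42 (adjusted p = 0.0446), and the kinase gene Pdk4 was dim (difference 0.048, adjusted p = 0.771). Mpc1 lost its call without TS2 A or TS2 B, Pdhx without TS2 B or TS1 A, and Pdp2 whichever array was left out.

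Of 6 measured pentose phosphate genes, 0 were higher in TS2 and 2 were higher in TS1, against 5.05% and 8.45% of all genes. Unadjusted limma p-values were under 0.05 for 1 gene with the higher mean in TS2 and 3 with the higher mean in TS1. Pgd, which encodes the second NADPH-forming enzyme of the pathway, had 11.31 and 11.35 in TS2, against 11.92 and 12.06 in TS1, and was 1.58-fold higher in TS1 (difference -0.66, SE 0.096, adjusted p = 0.0165). Rpia, whose product isomerises ribose 5-phosphate, had 8.83 and 8.76 in TS2, against 9.47 and 9.28 in TS1 (difference -0.58, SE 0.11, adjusted p = 0.0295). Pgls, the lactonase between the NADPH-forming steps, had 9.76 and 9.55 in TS2, against 9.28 and 9.19 in TS1, and was the only one of the 6 with all TS2 values above all TS1 values (difference 0.41, adjusted p = 0.0767). Neighbouring steps thus lay on opposite sides, though Pgls was not called. Pgd lost its call without TS2 A, TS2 B or TS1 B, and Rpia without TS2 A, TS2 B or TS1 A and after renewed quantile normalization (adjusted p = 0.0544).

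The enzymes of the reversible branch mostly lay together. Tkt (transketolase) had 10.53 and 10.44 in TS2, against 10.70 and 10.87 in TS1 (difference -0.30, adjusted p = 0.141). Rpe (the epimerase) differed by -0.027 and Taldo1 (transaldolase) by 0.027, with overlapping arrays. Of 9 further genes around the pathway, 0 were higher in TS2 and 3 were higher in TS1, against 5.05% and 8.45% of all genes. Unadjusted limma p-values were under 0.05 for 3 of the 9 in each direction. H6pd, which runs the first steps of the pathway in the endoplasmic reticulum, had 8.25 and 8.19 in TS2, against 10.12 and 10.43 in TS1 (difference -2.05, SE 0.13, adjusted p = 0.00164). Prps1 and Prps2, which turn ribose 5-phosphate into the precursor of nucleotides, differed by -0.94 (adjusted p = 0.00463) and -0.81 (adjusted p = 0.00834). H6pd and Prps1 kept their calls whichever array was left out, and Prps2 lost its call without TS2 A or TS2 B.

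All 12 TCA cycle genes had lower means in TS2, but most differences were small. Of these genes 2 were called, 16.7%, close to the 13.5% of all genes, and their median difference was -0.18. The sign is not firm for the smallest: 10 of 12 were negative with each array centred on its median and 9 of 12 after renewed quantile normalization. Sucla2 and Suclg1 encode subunits of succinyl-CoA ligase, which makes ATP or GTP within the cycle. Sucla2, the ATP-forming subunit, had 9.75 and 9.64 in TS2, against 10.19 and 10.19 in TS1 (difference -0.50, SE 0.091, adjusted p = 0.0293). Suclg1, the subunit shared by the enzyme's forms, had 10.09 and 10.08 in TS2, against 10.49 and 10.63 in TS1 (difference -0.47, SE 0.096, adjusted p = 0.0377). Suclg2, the GTP-forming subunit, had 10.60 and 10.68 in TS2, against 10.55 and 10.78 in TS1, a difference of -0.025. Neither Sucla2 nor Suclg1 stayed called in any of the 4 fits on 3 arrays, where their adjusted p ran from 0.0518 to 0.178.

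The isocitrate dehydrogenases were not called. Idh1, the cytosolic NADPH-forming enzyme, had 8.80 and 9.59 in TS2, against 9.94 and 10.35 in TS1, the largest difference among the TCA cycle genes (-0.95, SE 0.29, adjusted p = 0.105). It was called without TS2 B (adjusted p = 0.0490), a fit that leaves out the gap of 0.79 between the TS2 duplicates. Idh2, its mitochondrial relative, had 10.13 and 10.06 in TS2, against 10.37 and 10.24 in TS1 (difference -0.21, adjusted p = 0.238). Idh3a, the catalytic subunit of the NAD-dependent enzyme, differed by -0.30 (adjusted p = 0.157) and Idh3b by -0.024. The lines do not overlap for Idh1, Idh2 and Idh3a and overlap for Idh3b, and 58.4% of all genes did not overlap.

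The other TCA cycle genes lay closer together. Fh1, which encodes fumarase, had 10.77 and 10.76 in TS2, against 11.03 and 11.02 in TS1, with close duplicates (difference -0.26, adjusted p = 0.121). Cs (citrate synthase) differed by -0.16 and Ogdh (a subunit of oxoglutarate dehydrogenase) by -0.16. The malate dehydrogenases differed by -0.085 for the cytosolic Mdh1 and by -0.0016 for the mitochondrial Mdh2, whose 95% interval ran from -0.22 to 0.22. Of 19 further genes around the cycle, 1 was higher in TS2 and 3 were higher in TS1, against 5.05% and 8.45% of all genes. Higher in TS1 were Acly, which splits exported citrate for lipid synthesis (difference -0.61), Slc25a1, the citrate exporter of mitochondria (-0.53), and Sdhaf1, an assembly factor of succinate dehydrogenase (-0.46). Glud1, which feeds glutamate into the cycle, was higher in TS2 by 0.45. All 4 of these calls were lost whichever array was left out, and their adjusted p ran from 0.0240 for Slc25a1 to 0.0481 for Glud1.

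Isozymes were compared through the log2 ratio of their probe sets on each array, which shows unequal change between the lines but says nothing of which isozyme is more abundant. Of 19 pairs, 16 could be measured, and in 10 of them the ratios of TS2 and TS1 did not overlap. This share is close to the 58.4% of all genes whose levels did not overlap, so the ratios are given as a description. With 2 arrays per line, the smallest two-sided p of an exact permutation test is 0.333, so no ratio can pass a threshold by that test, and no other test of the ratios was run. The ratio of Slc16a3 to Slc16a1 was -5.03 and -4.56 in TS2, against -2.97 and -0.59 in TS1, a shift of -3.02. That of Aldoc to Aldoa was -6.70 and -6.58 in TS2, against -5.68 and -5.86 in TS1, a shift of -0.87. That of Slc2a3 to Slc2a1 was -1.09 and -1.11 in TS2, against -0.46 and -0.84 in TS1. These 3 shifts were toward the second gene in TS2.

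The Pfkfb ratios shifted toward the partners of Pfkfb3 in TS2. The ratio of Pfkfb2 to Pfkfb3 was -0.12 and -0.33 in TS2, against -1.21 and -1.10 in TS1, and that of Pfkfb4 to Pfkfb3 was -1.14 and -1.15 in TS2, against -1.79 and -1.88 in TS1. Within phosphofructokinase, the ratio of Pfkp to Pfkl was 1.63 and 1.63 in TS2, against 0.86 and 1.12 in TS1, and that of Pfkm to Pfkl was -0.28 and -0.22 in TS2, against 0.15 and -0.02 in TS1. The platelet subunit thus gained on the liver subunit in TS2 and the muscle subunit lost on it. The ratio of Suclg2 to Sucla2 was 0.86 and 1.04 in TS2, against 0.36 and 0.59 in TS1. That of Idh2 to Idh1 was 1.33 and 0.47 in TS2, against 0.43 and -0.10 in TS1, with TS2 B close to TS1 A. That of Mdh2 to Mdh1 was 1.42 and 1.37 in TS2, against 1.29 and 1.33 in TS1, a shift of 0.083. The ratios overlapped for Ldhb to Ldha, Hk1 to Hk2, Hk3 to Hk2, Pdk2 to Pdk1, Pdk3 to Pdk1 and Idh3a to Idh2.

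**Figure D3:**
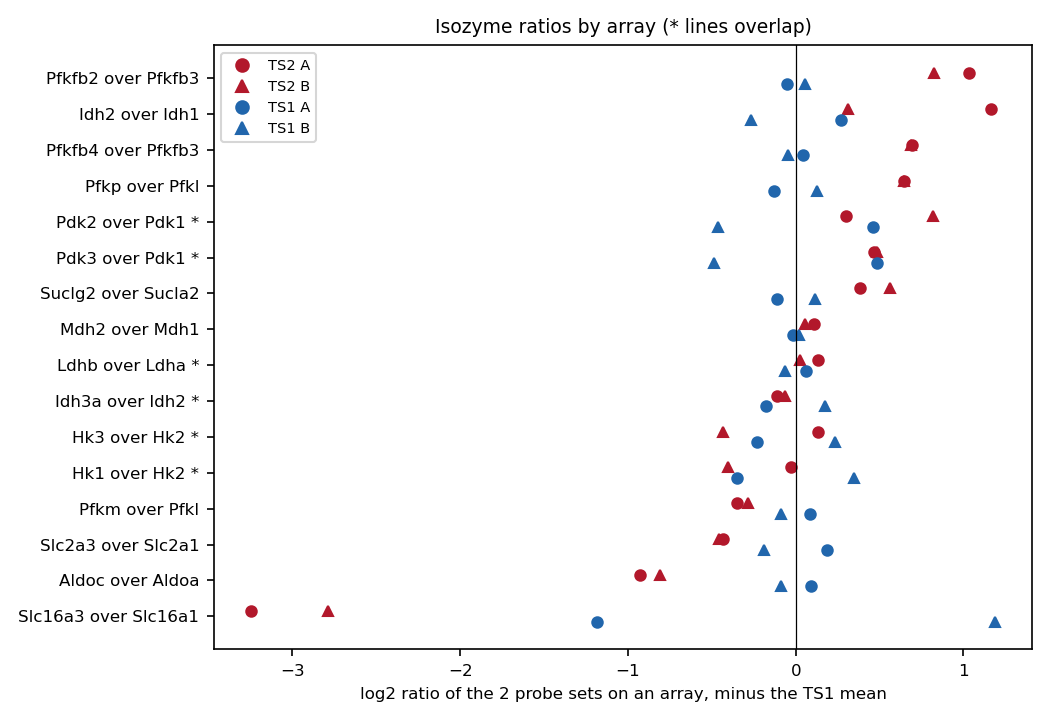
Log2 ratio of each isozyme pair on each array, set to the TS1 mean of that pair; red is TS2, blue is TS1, circles are duplicate A and triangles duplicate B. The lines do not overlap in 10 of the 16 pairs, and stars mark the 6 that overlap.

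Of 22 measured further glycolytic genes, 0 were higher in TS2 and 2 were higher in TS1. Unadjusted limma p-values were under 0.05 for 2 genes with the higher mean in TS2 and 4 with the higher mean in TS1. Bpgm, which makes the 2,3-bisphosphoglycerate of red cells, had 6.37 and 6.16 in TS2, against 7.37 and 7.28 in TS1 (difference -1.06, SE 0.11, adjusted p = 0.00674), a call kept whichever array was left out. Minpp1, an inositol polyphosphate phosphatase that also acts on bisphosphoglycerate, differed by -0.68 (adjusted p = 0.0206) and lost its call without TS2 A, TS2 B or TS1 B. The 2 calls are 9.09% of that list, below the share of all genes. Bpgm lay below the array medians in TS2, so the size of its difference is uncertain.

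Of 29 measured regulators of these pathways, 5 were higher in TS2 and 2 were higher in TS1, against 5.05% and 8.45% of all genes. The list as a whole was evenly split, with 14 positive and 15 negative differences and a median of -0.02. Myc, which activates glycolytic genes in dividing lymphocytes, had 12.63 and 12.56 in TS2, against 10.09 and 10.45 in TS1 (difference 2.33, SE 0.14, adjusted p = 0.00157). Epas1, which encodes the hypoxia-inducible factor HIF-2 alpha, had 8.07 and 8.18 in TS2, against 6.02 and 6.42 in TS1 (difference 1.90, SE 0.15, adjusted p = 0.00321). Myc and Epas1 kept their calls whichever array was left out. Epas1 lay below the array medians in TS1, so the size of its difference is uncertain. Egln1, the main oxygen sensor that marks HIF for destruction, was higher in TS2 by 1.30 (adjusted p = 0.0373), and Arnt, the partner of the HIF alpha subunits, by 0.64 (adjusted p = 0.0132), and both lost their calls without TS2 A or TS2 B. Hif1a had 11.62 and 11.90 in TS2, against 11.19 and 11.46 in TS1, a difference of 0.44 that was not called (adjusted p = 0.134), and Txnip, an inhibitor of glucose uptake, differed by -0.052. The other 3 calls, named after their values were seen, were Nfe2l2, higher in TS2 by 0.48, and Mtor and Prkaa1, which differed by -0.52 and -0.51. Nfe2l2 and Prkaa1 lost their calls whichever array was left out, and Mtor without TS2 A, TS2 B or TS1 B.

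Of 16 measured hypoxia markers, 2 were higher in TS2 and 3 were higher in TS1, against 5.05% and 8.45% of all genes. Their differences were positive for 4 and negative for 12, with a median of -0.32. Ndrg1, a stress-response gene, had 8.70 and 8.94 in TS2, against 6.88 and 6.67 in TS1 (difference 2.05, SE 0.13, adjusted p = 0.00165), and kept its call whichever array was left out. Vegfa, which encodes an angiogenic growth factor, had 9.08 and 9.31 in TS2, against 9.84 and 10.06 in TS1 (difference -0.75, adjusted p = 0.0261). Car9, a carbonic anhydrase, differed by -0.67 (adjusted p = 0.0414) and Ero1a, an oxidase of the endoplasmic reticulum, by -0.53 (adjusted p = 0.0278). Anln, a protein of cell division named after its values were seen, was higher in TS2 by 0.46. Car9, Ero1a and Anln lost their calls whichever array was left out, and Vegfa without TS2 A, TS2 B or TS1 B. Car9 lay below the array medians in TS2, so the size of its difference is uncertain.

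**Figure D4:**
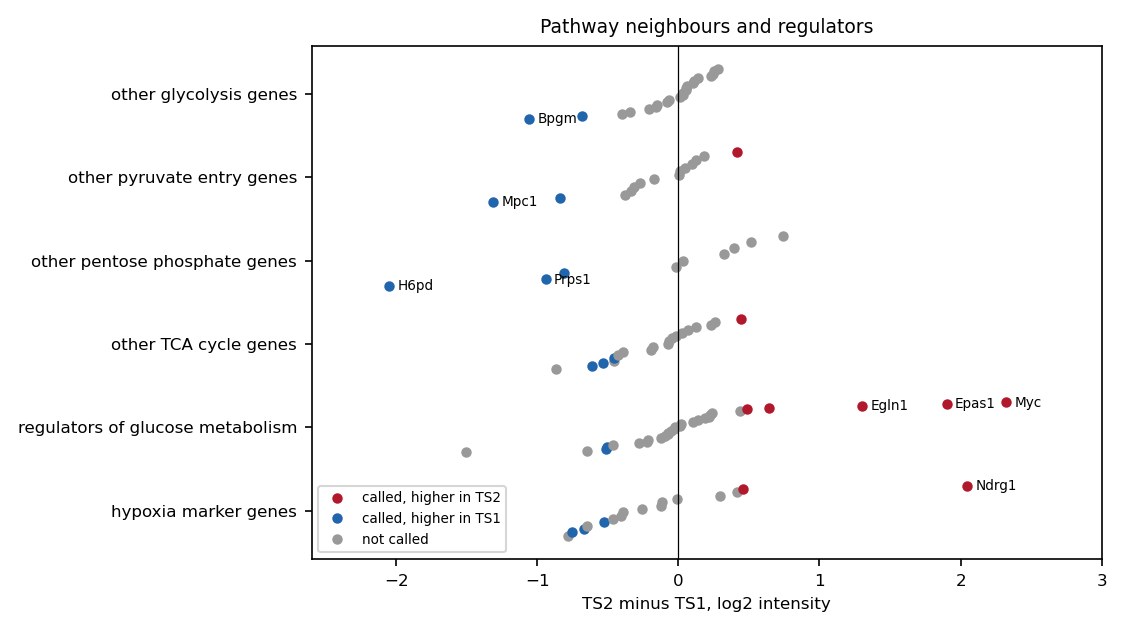
Difference between the lines (TS2 minus TS1, log2 intensity) for the measured genes of 6 further lists, 1 point a gene; red is called higher in TS2, blue called higher in TS1 and grey not called. Among the called genes H6pd, Mpc1 and Bpgm lie farthest left, and Myc, Ndrg1, Epas1 and Egln1 farthest right.

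The duplicates lay far apart for a few genes. In TS2, 2 of the 46 genes lay more than 0.5 apart between A and B (Idh1 and Pdk2), against 2.97% of all genes. In TS1, 5 of the 46 did (Slc16a3, Eno2, Pdk1, Eno3 and Hk2), against 5.18% of all genes. These genes are named after their values were seen. TS1 B was above TS1 A by 2.44 for Slc16a3, 1.23 for Eno2, 1.005 for Pdk1 and 0.68 for Eno3, and below it by 0.61 for Hk2. Of the 16 hypoxia markers, 13 were higher on TS2 B than on TS2 A, against 9329 of all 19938 genes. On TS1 B, 11 were higher than on TS1 A, against 11079 of all genes. The median gaps, B minus A, of the markers were 0.085 in TS2 and 0.087 in TS1, against -0.011 and 0.026 over all genes. The source of these gaps was not tested.

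**Figure D5:**
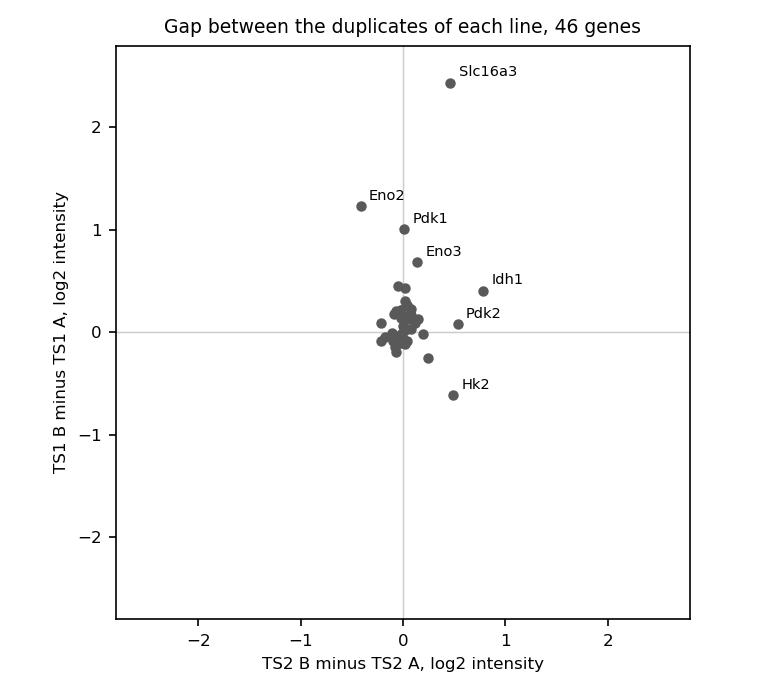
Gap between the duplicates for each of the 46 genes, TS2 B minus TS2 A on the horizontal axis and TS1 B minus TS1 A on the vertical axis (log2 intensity). Most genes lie near the centre, and Slc16a3, Eno2 and Pdk1 lie highest above it on the TS1 axis.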

How the data were processed

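Total RNA of the lines TS2 and TS1 was measured on Affymetrix mouse gene arrays, 1 array for each of 2 duplicates per line. Per the submitters' processing notes, the authors used Affymetrix Expression Console and RMA, which corrects background, normalizes between arrays and summarises each probe set, so a shift shared by most genes is removed. What they deposited are linear intensities, of which log2 was taken here. The plan assumed log2 values and its tests were kept. Scan batches and detection calls were not analysed here.

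Gene names of probe sets came from GEO's platform annotation, with symbols updated through a RefSeq gene table (GRCm38.p6). Of 35556 probe sets, 21789 named 1 gene, 1621 several and 12146 none, and 21698 of the single-gene sets were found there. A limma model of all genes (3.58.1, R 4.3.3) had the line as its factor and 2 residual and 3.03 prior degrees of freedom. On simulated data with 200 of 19938 genes changed, the share recovered was 66% for a log2 change of 1 and 95.6% for a log2 change of 2. False calls averaged 8.2 over 20 simulations. The simulation changed fewer genes than the 2691 called in these data, so its recovery and false calls may not hold here. The members and lists were chosen with earlier results of these data known. Every measured member is accounted for. Outside them, up to 4 called genes of each list with the largest differences are named, with Hif1a, Myc, Txnip and Pdk4.

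Listed neighbours and markers without a single-gene probe set are left out of the counts. The letters A and B were not treated as pairs, since the labels do not state that they mark a shared batch. The deviations of same-lettered arrays correlated at r = 0.025 over all 35556 probe sets, which does not tell whether some genes shared a deviation. The alternatives were a block for the letter, fits on 3 arrays, other prior variances, centring, quantile normalization, filters on dim probe sets, the mean of a gene's probe sets and a threshold of 0.01. Promoters were matched by symbol for 49 of 51 genes.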

Additional observations from a re-analysis of the deposited data

How the results depend on the processing

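The call of Eno3 as higher in TS2, and those of Pfkfb3, Aldoc and Pdha1 as higher in TS1, held in every alternative except the fit without moderated variances. That fit called 0 genes of all, 0 members in either direction and so 0 of every pathway, with 4156 genes at an unadjusted p under 0.05. With the replicate letter as a block, 1666 genes were called in place of 2691, and of the members higher in TS1 there were 9 in place of 12, with 1 each of the pentose phosphate and TCA cycle genes. The labels do not state that a letter marks a shared batch. In that fit Slc16a3 (adjusted p = 0.0467) and Idh1 (adjusted p = 0.0387), the 1 TCA cycle gene, gained a call. Eno2, Pfkfb4, Rpia, Sucla2 and Suclg1 lost theirs, with adjusted p from 0.0542 to 0.0820. At an adjusted p under 0.01, 807 genes and 4 members higher in TS1 were called, 2 of them glycolytic and 0 of the pentose phosphate or TCA cycle.

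Leaving out each array gave 979 to 2198 called genes and 3 to 11 members higher in TS1, of which 2 to 6 were glycolytic, 1 to 4 of pyruvate entry, 0 to 1 of the pentose phosphate pathway and 0 to 1 of the TCA cycle. The member counts include genes called only with an array left out, such as Slc16a3 and Pdk1. Fewer arrays leave fewer degrees of freedom. The median differences then ran from -0.21 to -0.019 for glycolysis, from -0.24 to -0.11 for the pentose phosphate pathway and from -0.23 to -0.19 for the TCA cycle, and the isozyme pairs that did not overlap were 11 to 16, since a line with 1 array overlaps less easily. Quantile normalization again gave 1 pentose phosphate and 1 TCA cycle gene higher in TS1 and medians of -0.091 and -0.11. Centring gave a TCA cycle median of -0.16, and without the dimmer 50% of probe sets the glycolysis median was -0.19.

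Some members that were not called changed sign near 0, and the cause was not tested. With arrays left out the differences ran from -0.034 to 0.23 for Slc2a1, -0.025 to 0.59 for Hk2, -0.15 to 0.017 for Aldoa, -0.14 to 0.017 for Tpi1, -0.21 to 0.0025 for Pgk1, -0.40 to 0.030 for Pgam1, -0.074 to 0.0034 for Ldha, -0.0015 to 0.089 for Ldhb, -0.10 to 0.048 for Rpe, -0.020 to 0.074 for Taldo1, -0.059 to 0.011 for Idh3b, -0.14 to 0.087 for Suclg2 and -0.025 to 0.022 for Mdh2. Centring gave 0.00021 for Idh3b and 0.023 for Mdh2. Quantile normalization gave 0.049 for Rpe, 0.036 for Idh3b, 0.046 for Suclg2, 0.034 for Mdh2 and 0.028 for Txnip, and the mean of the probe sets of Ldhb gave -0.0094. The alternatives for members that were not called, and for genes outside the members, were chosen after seeing the data.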
